A study of Gossypium hirsutum with 89 samples.

Results

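The transcripts described here are those of 3 MYB transcription factor genes and 1 basic helix-loop-helix (bHLH) factor gene of upland cotton, Gossypium hirsutum. They were chosen by probe set identifier, by a rule that uses no signal value, although earlier results of these data were known. They are 4 of the 24132 probe sets of the Affymetrix Cotton Genome array: Ghi.8089.1.S1_at for MYB5, Ghi.8080.1.S1_at for GHMYB36, Ghi.8079.1.S1_at for GHMYB10 and Ghi.7949.1.S1_s_at for GHDEL61, the bHLH factor. All 4 passed the filter on low signals. Total RNA of 5 field-grown genotypes was hybridised to 89 arrays. The superior class of the design, for fibre traits, holds JKC 725 and JKC 777, and the inferior class holds JKC 703, JKC 783 and JKC 737. Material came from flowers tagged at anthesis, on that day (0) and 6, 9, 12, 19 and 25 days post anthesis (dpa). Every genotype has 3 arrays of biological replicates a day, apart from 25 dpa in JKC 783, which has 2. According to the sampling protocol the 0 dpa material was the whole ovule, although the sample titles call it fibre, and the later material was fibre alone.

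Cotton fibres are single-celled hairs that grow out of the epidermis of the ovule, and they begin to bulge from it around the day of anthesis. In Arabidopsis, leaf hairs are initiated by a complex of an R2R3-type MYB factor, a bHLH factor such as GL3 and the WD40 protein TTG1, and related MYB, bHLH and WD40 complexes switch on proanthocyanidin synthesis in the seed coat. Cotton has genes for the same kinds of factor, and they have been studied as candidate regulators of fibre initiation.

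The values are MAS5 signals, the summary intensities of Affymetrix probe sets. Each signal was taken as log2 of the signal plus 4.38, and a change is a difference on that scale. A change was called when limma's Benjamini-Hochberg adjusted p, over the 18659 probe sets tested, was under 0.05 and the change was at least 1. Signals under 40.4, the 40th percentile of the table, are low signals here, and the size of a change that starts or ends there rests on the added 4.38. Signals differ between probe sets for reasons other than transcript abundance, so levels of different genes are not set against each other. The GHDEL61 probe set, with the suffix s_at, can bind more than 1 transcript, and copies from the A and D subgenomes were not separated for any of the genes. A second gene also carries the synonym MYB5, beside MYB6, and is measured by another probe set.

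All 4 transcripts had lower mean signals in 6 dpa fibre than in the 0 dpa ovule, in every genotype. Averaged over genotypes, limma gave a change of -2.91 ± 0.32 (SE) for MYB5, -2.85 ± 0.29 for GHMYB36, -2.18 ± 0.22 for GHDEL61 and -1.82 ± 0.27 for GHMYB10, while the median over all tested probe sets was -0.28. Within genotypes, 19 of the 20 combinations of gene and genotype were called falls and 0 were called rises, against 16.7% of all tested combinations called falls and 9.68% called rises. MYB5, GHMYB36 and GHDEL61 fell in all 5 genotypes, as did 2.89% of tested probe sets. The step changes the tissue as well as the day, and in such bulk samples fewer cells of a type and less RNA per cell cannot be told apart.

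**Figure D1:**
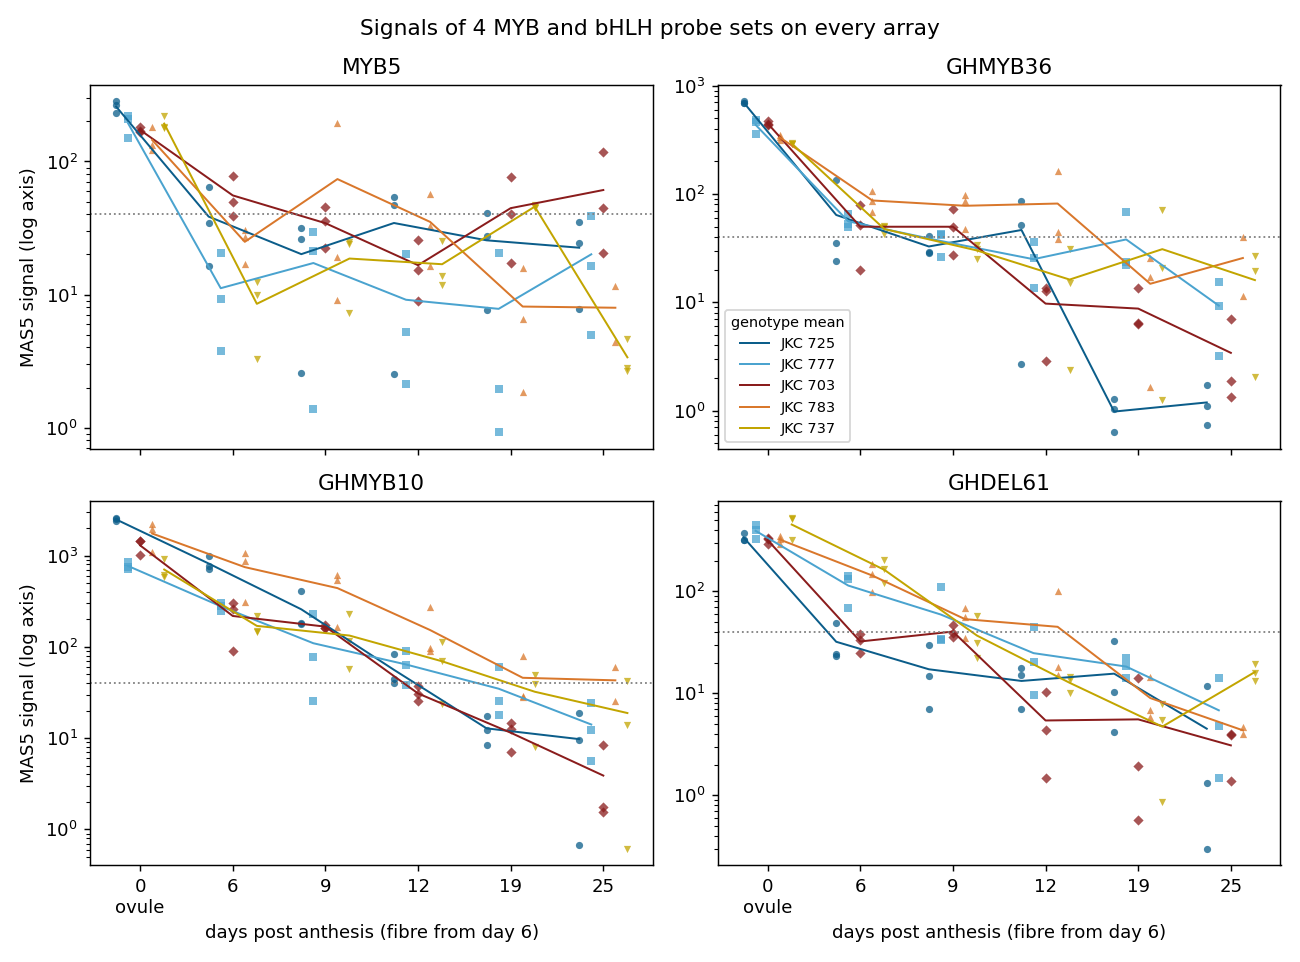
Signal of the 4 probe sets on each of the 89 arrays (points, log axis) against days post anthesis, with lines through the mean of each genotype and a dotted line at the low-signal limit of 40.4. All 4 panels are highest at 0 dpa, and GHMYB10 was below the previous day at every later day, while 59 of the 74 fibre arrays of MYB5 lay under the limit, with 1 at 193 (JKC 783, 9 dpa) and 1 at 118 (JKC 703, 25 dpa).

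MYB5, annotated as a MYB factor, was above the low-signal limit on all 15 ovule arrays and on few fibre arrays. In JKC 725, MYB5 had signals of 64.4, 34.7 and 16.4 at 6 dpa, against 282, 264 and 230.0 at 0 dpa. JKC 777 had MYB5 signals of 9.31, 20.4 and 3.75 at 6 dpa, against 221, 151 and 208 at 0 dpa. The JKC 725 and JKC 777 ovules thus held several times the signal of their young fibre. In JKC 703, MYB5 was at 38.9, 77.9 and 49.99 at 6 dpa, against 168, 168 and 181 at 0 dpa. JKC 783 had MYB5 signals of 16.9, 30.6 and 27.2 at 6 dpa, against 182, 121 and 132 at 0 dpa. No array of either genotype overlapped between the days, but JKC 703 kept the highest MYB5 mean of the 5 genotypes at 6 dpa. In JKC 737, MYB5 was at 3.27, 9.92 and 12.4 at 6 dpa, against 218, 178 and 182 at 0 dpa. The fall was -4.002 ± 0.71 in JKC 737 (limma adjusted p = 4.1e-06) and -3.80 ± 0.71 in JKC 777 (7.96e-06). It was -1.61 ± 0.71 in JKC 703 (adjusted p = 0.0493), and this call was lost under 8 alternatives, among them median centring (-1.37, adjusted p = 0.0949). In JKC 783 the fall was -2.36 ± 0.71 (adjusted p = 0.00509). That call was lost without replicate 1 (-1.98) and without replicate 3 (-2.49, adjusted p = 0.0516).

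GHMYB36, a MYB factor gene also listed as myb120a, myb120b and myb124, showed little scatter in the ovule. In JKC 725, GHMYB36 had signals of 133, 34.9 and 23.9 at 6 dpa, against 715, 698 and 693 at 0 dpa. JKC 777 had GHMYB36 signals of 65.4, 49.6 and 52.8 at 6 dpa, against 358, 480.1 and 467 at 0 dpa. In JKC 703, GHMYB36 was at 78.4, 51.3 and 19.8 at 6 dpa, against 443, 434 and 469 at 0 dpa. These 3 genotypes came down to overlapping 6 dpa signals although JKC 725 stood above the others at 0 dpa. JKC 783 had GHMYB36 signals of 67.7, 87.0 and 107 at 6 dpa, against 314, 336 and 351 at 0 dpa. In JKC 737, GHMYB36 was at 50.1, 49.5 and 42.7 at 6 dpa, against 290.0, 298 and 289 at 0 dpa. The changes ran between -3.72 ± 0.64 in JKC 725 (limma adjusted p = 1.13e-06) and -1.91 ± 0.64 in JKC 783 (adjusted p = 0.0128). The JKC 783 call was lost without an offset (adjusted p = 0.0862) and without replicate 1 (change -1.79).

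GHMYB10, annotated as a MYB factor gene, was the member whose signal remained above the limit on all 15 arrays at 6 dpa. In JKC 725, GHMYB10 had signals of 982, 763 and 713 at 6 dpa, against 2603, 2515 and 2375 at 0 dpa. JKC 783 had GHMYB10 signals of 1062, 877 and 307 at 6 dpa, against 1944, 2197 and 1104 at 0 dpa. In both genotypes the 6 dpa arrays lay below all their 0 dpa arrays. In JKC 777, GHMYB10 was at 305, 249 and 282 at 6 dpa, against 743, 712 and 856 at 0 dpa. JKC 703 had GHMYB10 signals of 302, 263 and 90.0 at 6 dpa, against 1438, 1019 and 1431 at 0 dpa. In JKC 737, GHMYB10 was at 144, 149 and 216 at 6 dpa, against 924, 608 and 582 at 0 dpa. The groups did not overlap in any genotype, but the 6 dpa arrays of JKC 725 and JKC 783 reached the range of other genotypes' ovules. The fall was largest in JKC 703, at -2.70 ± 0.61 (limma adjusted p = 0.000138). In JKC 783 the change of -1.34 ± 0.61 was not called (adjusted p = 0.0667), and it was called after quantile normalization (0.0468) and with an offset of 16 (0.0205). The calls in JKC 725 (-1.62) and JKC 777 (-1.45) were lost with median centring, without an offset and with each replicate number left out.

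GHDEL61, also listed as bHLH110D, is annotated as a bHLH factor, the kind of partner that MYB factors bind in the Arabidopsis hair complex. In JKC 725, GHDEL61 had signals of 48.7, 23.2 and 24.4 at 6 dpa, against 319, 318 and 378 at 0 dpa. JKC 703 had GHDEL61 signals of 33.4, 38.4 and 25.2 at 6 dpa, against 290.4, 336 and 329 at 0 dpa. Both genotypes reached low signals by 6 dpa. In JKC 777, GHDEL61 was at 69.0, 141 and 133 at 6 dpa, against 452, 329 and 398 at 0 dpa. JKC 783 had GHDEL61 signals of 97.8, 185 and 147 at 6 dpa, against 347, 294 and 329 at 0 dpa. In JKC 737, GHDEL61 was at 166, 201 and 121 at 6 dpa, against 528, 321 and 509 at 0 dpa. These 3 genotypes kept a measurable signal at 6 dpa, below all their ovule arrays. The change was -3.30 ± 0.50 in JKC 725 (limma adjusted p = 5.23e-08) and -3.15 ± 0.50 in JKC 703 (1.94e-07), but -1.80 ± 0.50 in JKC 777. JKC 737 had -1.45 ± 0.50, and JKC 783 the smallest fall, -1.19 ± 0.50. The JKC 783 call (adjusted p = 0.0444) was lost after quantile normalization, median centring, without an offset and without the filter. It was also lost without replicates 1, 2 and 3 in turn (-0.90, -1.46 and -1.22). The JKC 777 call was lost without an offset (0.0568) and without replicate 1 (change -1.38). That in JKC 737 was lost without an offset (0.15), without replicate 3 (0.139) and without replicate 1 (change -1.35).

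For MYB5, GHMYB36 and GHDEL61, all 15 arrays at 6 dpa lay below all 15 at 0 dpa, which 10.5% of tested probe sets also showed. Within each genotype the days did not overlap for any of the 4, a pattern found in 18% of tested probe sets. Cell markers changed between the same samples. Of 7 probe sets for fibre cell genes, among them the expansin EXPA1 and the fibre protein E6, 6 rose, and their summed genotype means were 47940 to 62800 at 6 dpa, against 9741 to 11540 at 0 dpa. The 6 probe sets for seed and embryo genes include those for late embryogenesis abundant proteins and storage proteins. Their sums were 1453 to 3599 at 6 dpa, against 1934 to 3574 at 0 dpa, with 1 called higher and 1 lower. Of these 6, Lea5-D had the largest mean over genotypes at both days. The 1 called higher was Lea14-A, at +2.82 ± 0.16 (limma adjusted p = 7.89e-25), with means of 107 at 0 dpa and 830 at 6 dpa. Among them, vicB_At, a vicilin gene, stayed under 10 in both. One LEGB probe set, for legumin, was at 323 to 573 at 6 dpa, against 789 to 943 at 0 dpa, while the other was under 10. Probe sets with such different signals may not measure the same transcript, and which of them measures legumin RNA was not tested. HIS2B, a marker of dividing cells, changed by -0.18 ± 0.09 and was not called. The part of these cell types in the falls was not tested.

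**Figure D2:**
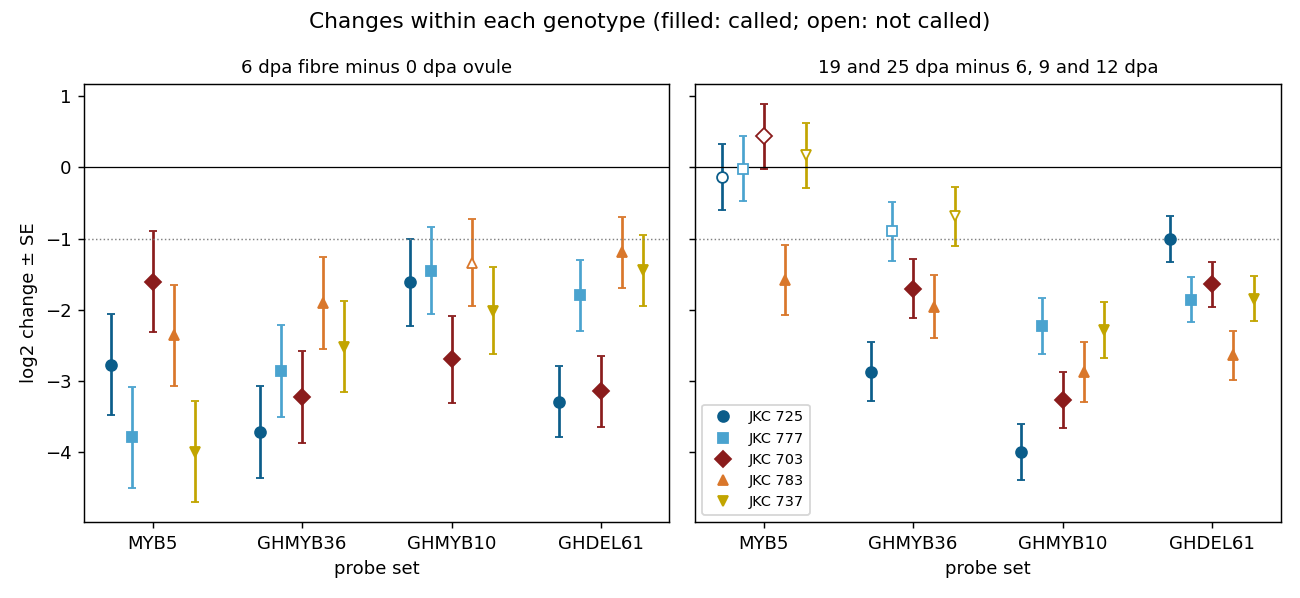
Change on the log2(signal + 4.38) scale, with its standard error from limma, for each gene and genotype. The left panel shows 6 dpa fibre minus 0 dpa ovule, where 19 of 20 points are called (filled), and the right panel shows 19 and 25 dpa minus 6, 9 and 12 dpa, where 14 of 20 are called. The dotted line marks a change of -1.

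Within fibre, GHMYB10 and GHDEL61 were lower at the later days in every genotype, GHMYB36 in 3 genotypes and MYB5 in 1. The later days, the mean of 19 and 25 dpa, were compared with the mean of 6, 9 and 12 dpa, which span the elongation of the fibre. Of 20 combinations of gene and genotype, 14 were called lower at the later days and 0 higher, against 12.9% of tested combinations called lower and 12.2% higher. Falls in all 5 genotypes, as for GHMYB10 and GHDEL61, were called for 3.51% of tested probe sets. GHMYB36 fell in JKC 725, JKC 703 and JKC 783, and MYB5 in JKC 783.

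The GHMYB10 signal declined at every sampling. Over the 15 arrays at 6 dpa it ranged between 90.0 and 1062 with a median of 302, and at 9 dpa between 25.7 and 621 with a median of 175. At 12 dpa it lay between 23.9 and 272 with a median of 63.8. At 19 dpa it lay between 7.03 and 80.4 with a median of 18.1, and over the 14 arrays at 25 dpa between 0.615 and 60.5 with a median of 10.98. Most arrays were thus under the low-signal limit at 19 and 25 dpa, 12 at each. The change in genotype means was negative in 20 of 20 steps between neighbouring fibre days, although 4 of these were called. Those 4 were the steps to 9, 12 and 19 dpa in JKC 725 (-1.75, -2.08 and -1.78) and the step to 12 dpa in JKC 703 (-2.29 ± 0.61, limma adjusted p = 0.00378). Later minus earlier days, GHMYB10 fell by 3.998 ± 0.39 in JKC 725, where the arrays had 12.3, 17.7 and 8.39 at 19 dpa and 19.0, 9.62 and 0.674 at 25 dpa. The change was -3.27 in JKC 703 and -2.88 in JKC 783, while JKC 737 had -2.29 and JKC 777 had -2.24, each with an adjusted p of at most 1.54e-06. Replicate 2 of JKC 725 at 12 dpa was the array that correlated least with its group (mean r = 0.911 over tested probe sets). Without it the JKC 725 step to 12 dpa was -1.89 and no longer called (adjusted p = 0.0694). That step was also lost without an offset (0.136). The JKC 725 step to 9 dpa was lost after quantile normalization (0.054), without an offset (0.139) and without replicate 3 (0.106). The JKC 725 step to 19 dpa was lost without replicate 3 (0.147). Leaving out replicate 1 lost the JKC 725 steps to 9, 12 and 19 dpa (-1.425, -2.143 and -1.898). The JKC 703 step was lost without replicates 1 and 2 in turn (-2.248 and -2.195).

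GHDEL61 went under the low-signal limit in most samples by 12 dpa. Its median array signal was 97.8 at 6 dpa, 35.1 at 9 dpa, 14.4 at 12 dpa, 7.80 at 19 dpa and 4.36 at 25 dpa, with 13 of 15 arrays below the limit at 12 dpa and all of them at 19 and 25 dpa. The later-minus-earlier change was largest in JKC 783, at -2.64 ± 0.34 (limma adjusted p = 1.28e-09), and smallest in JKC 725, at -1.01 ± 0.32 (0.00454). In JKC 725 the young fibre was already low. With an offset of 16 the JKC 725 and JKC 703 changes were -0.53 and -0.95, under the minimum change. Among neighbouring days GHDEL61 fell in JKC 737 at 9 dpa (-2.08 ± 0.50), in JKC 703 at 12 dpa (-2.29 ± 0.50) and in JKC 783 at 19 dpa (-1.48 ± 0.50). The JKC 783 step was -0.71 and not called (adjusted p = 0.399) without the 12 dpa array with a signal of 102, whose 2 companions had 18.3 and 15.1.

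GHMYB36 was under the low-signal limit in every genotype mean at 19 and 25 dpa, with 13 of 15 arrays at 19 dpa and all 14 at 25 dpa below it. In JKC 725 it had signals of 85.4, 2.67 and 51.4 at 12 dpa, 0.629, 1.27 and 1.04 at 19 dpa and 1.102, 1.73 and 0.735 at 25 dpa. All 6 of the late JKC 725 arrays were among the lowest values of the table, below the 4.38 that was added. In JKC 777 it was at 35.7, 13.5 and 25.7 at 12 dpa, 22.0, 23.5 and 68.6 at 19 dpa and 3.17, 15.5 and 9.25 at 25 dpa. The later-minus-earlier change was -2.88 ± 0.42 in JKC 725 (limma adjusted p = 1.1e-08), -1.96 ± 0.45 in JKC 783 and -1.71 ± 0.42 in JKC 703. It was -0.90 ± 0.42 in JKC 777 (adjusted p = 0.0591) and -0.69 ± 0.42 in JKC 737 (0.149), neither of them called. Without replicate 2 the changes in JKC 777 and JKC 737 were -1.15 and -1.13, and both were then called. Of its 20 steps between neighbouring days, 3 were called falls: the step to 19 dpa in JKC 725 (-2.62) and JKC 783 (-2.16) and the step to 12 dpa in JKC 703 (-1.96). Leaving out replicate 1 lost all 3 calls (-1.84, -1.77 and -1.23 in the same order). That in JKC 783 was also lost without replicate 2 (-1.83). The JKC 783 step was -1.54 (adjusted p = 0.134) without the 12 dpa array with a signal of 162, whose companions had 38.3 and 44.7.

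MYB5 stayed low in fibre, with 59 of 74 fibre arrays under the limit and scattered higher ones. Its median array signal was 20.4 at 6 dpa, 23.9 at 9 dpa, 16.3 at 12 dpa, 20.5 at 19 dpa and 13.9 at 25 dpa. JKC 737 had signals of 2.68 to 4.65 at 25 dpa, against 44.5, 45.8 and 47.0 at 19 dpa, a fall of -2.70 ± 0.71 (limma adjusted p = 0.00164) and the single called step of MYB5. The only later-minus-earlier call was in JKC 783, at -1.58 ± 0.49 (adjusted p = 0.00476), where 1 array at 9 dpa had 193 and the other 2 had 9.03 and 19.1. Leaving out replicate 1 of every group, which held that array, gave -0.72 (adjusted p = 0.362). The other genotypes were between -0.13 and +0.44.

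Over all 80 steps between neighbouring fibre days, 11 were called falls and 1 a rise, against 4.19% and 4.08% of tested combinations. The rise was that of GHDEL61 in JKC 737, which had 13.4 to 19.4 at 25 dpa, against 0.866 to 7.80 at 19 dpa, all of them low signals. It was lost with an offset of 16, without the filter and without replicates 1, 2 and 3 in turn (+1.513, +1 and +1.245).

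Among the 5 genotypes, the clearest difference was that of GHDEL61 at 6 dpa. The 6 arrays of JKC 725 and JKC 703 had signals of 23.2 to 48.7, and all of them lay below the 9 arrays of JKC 777, JKC 783 and JKC 737, which had 69.0 to 201. The means at 6 dpa were 32.1 ± 14.4 in JKC 725 and 32.3 ± 6.69 in JKC 703 (SD, n = 3). JKC 777 averaged 114 ± 39.3, JKC 783 had 143 ± 43.8 and the highest mean, 163 ± 40.4, was that of JKC 737. This division, seen first in the values, runs across the fibre classes, with 1 superior and 1 inferior genotype on the low side, and 12.2% of tested probe sets showed it without overlap. Limma's F test gave an adjusted p of 2.05e-05 with a range of 2.23. Of the 10 genotype pairs 6 were called, against 9.76% of all pairs at 6 dpa, and these were exactly the pairs across the division. Of the 6, JKC 777 minus JKC 703 and JKC 725 minus JKC 777 were lost without an offset (0.106 and 0.0797), without replicate 2 (0.059 and 0.103) and without replicate 3 (0.112 and 0.0832). JKC 725 minus JKC 737 was -2.23 ± 0.50 (adjusted p = 0.000212), and JKC 777 minus JKC 703 was +1.65 ± 0.50 (0.0087). The F test was called under every alternative run, with adjusted p between 7.1e-08 and 0.0147. At 0 dpa the genotypes were not separated for GHDEL61 (adjusted p = 0.889, range 0.47), and the 5 genotype means lay between 318 and 453. The steps themselves differed between genotypes for GHDEL61 (interaction F test, adjusted p = 0.0254), a result that was lost after quantile normalization (0.0986), without an offset (0.289), without replicate 2 (0.308) and without replicate 3 (0.203). Of the 4 genes it was the 1 so called, against 34.4% of tested probe sets. In 6 dpa means, several cell markers also divided JKC 725 and JKC 703 from the other genotypes. HIS2B was lower (4891 and 5163, against 8422 to 8823). E6 was also lower (9934 and 10450, against 13290 to 14360), as was the flavonoid gene DFR (6276 and 7179, against 8062 to 9887). Lea5-D was higher (2259 and 2748, against 425 to 621), and so was the fibre gene KCS12. EXPA1 and HOX3 did not divide. The part of this division in the GHDEL61 difference was not tested.

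**Figure D3:**
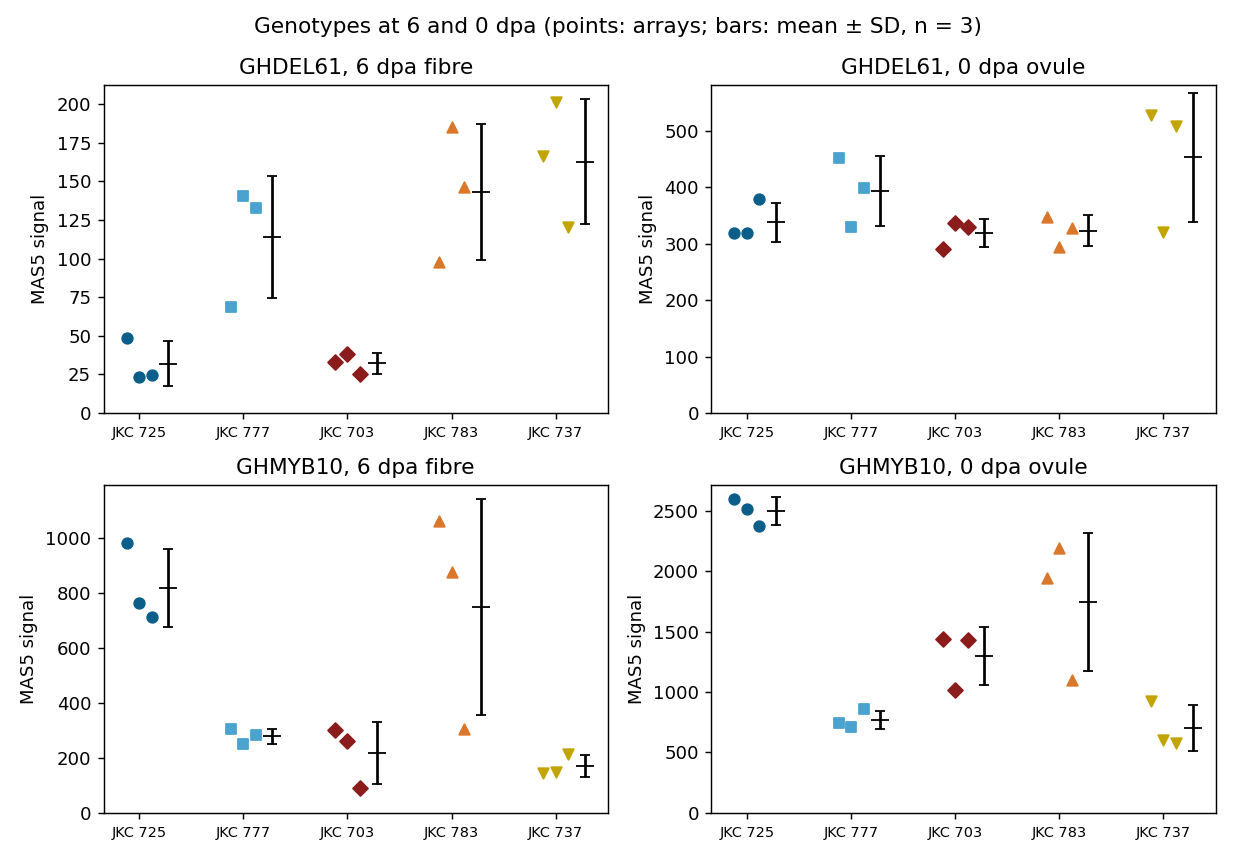
Signals of GHDEL61 (top) and GHMYB10 (bottom) on each array of the 5 genotypes at 6 dpa (left) and 0 dpa (right), on linear axes that start at 0. Bars are mean ± SD of 3 arrays. For GHDEL61 at 6 dpa the JKC 725 and JKC 703 arrays lie at 23.2 to 48.7, and those of the other genotypes at 69.0 to 201.

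GHMYB10 ranked the genotypes differently. At 0 dpa its signal was 2498 ± 115 in JKC 725 and 1748 ± 572 in JKC 783 (SD, n = 3). JKC 703 followed with 1296 ± 240, JKC 777 had 770.4 ± 76.1 and JKC 737 had 704 ± 190.3. JKC 725 stood above JKC 783, and JKC 703 above JKC 777, without overlap of arrays, while JKC 783 with JKC 703 and JKC 777 with JKC 737 overlapped. At 6 dpa JKC 725 (819 ± 143) and JKC 783 (749 ± 394) again led, and overlapped each other, followed by JKC 777 (279 ± 28.2), JKC 703 (218 ± 113) and JKC 737 (170 ± 40.1). The F test was called at 0 dpa (limma adjusted p = 0.0374), 6 dpa (0.00199), 9 dpa (0.0145) and 25 dpa (0.0166), and not at 12 dpa (0.0665) or 19 dpa (0.0715). None of these held under every alternative. Without an offset the tests at 0, 6 and 9 dpa were lost (0.252, 0.0533 and 0.132), and with an offset of 16 that at 25 dpa (0.114). Leaving out replicates lost the test at 0 dpa each time (0.0688 to 0.267), that at 6 dpa without replicate 1 (0.0549), that at 9 dpa without replicate 2 (0.503) and that at 25 dpa without replicate 1 (0.144). Fitting each day alone, an alternative chosen after seeing the data, lost the tests at 9 dpa (0.0738) and 25 dpa (0.165). Those at 0 dpa (2.17e-05) and 6 dpa (0.00086) then had a smaller adjusted p than in the main fit. The pooled replicate SD of GHMYB10 was 0.322 at 0 dpa and 0.625 to 1.07 at the later days. The tests at 12 and 19 dpa passed after quantile normalization (0.0368 and 0.0108) and with median centring (0.045 and 0.00465). At 6 dpa JKC 725 exceeded JKC 737 by 2.25 ± 0.61 (adjusted p = 0.00218), JKC 703 by 2.05 (0.0489) and JKC 777 by 1.53 (0.0446). The differences from JKC 703 and JKC 777 were lost without an offset (0.218 and 0.162), without the filter (0.0599 and 0.0547) and with each replicate number left out, and that from JKC 703 also without the intensity trend (0.0549). At 19 dpa JKC 725 had 12.8 ± 4.66 and JKC 783 had the highest mean, 45.8 ± 29.9, a difference of -1.43 ± 0.61 (adjusted p = 0.0443). This call was lost without an offset (0.0875), with an offset of 16 (0.0709), without the filter (0.0532), with each replicate number left out (0.0571 to 0.355) and with the day fitted alone (0.0552).

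In the ovule, JKC 725 was the highest genotype without overlap for MYB5, GHMYB36 and GHMYB10, as it was for 5.76% of tested probe sets, but not for GHDEL61. GHMYB36 at 0 dpa was 702 ± 11.6 in JKC 725, while JKC 703 had 448 ± 18.1 and JKC 777 had 435 ± 67.1 (SD, n = 3). The lowest were JKC 783, with 334 ± 18.8, and JKC 737, with 293 ± 5.17. Only JKC 703 and JKC 777 overlapped in that order. The F test over all arrays did not call it (limma adjusted p = 0.443, range 1.25). That fit applied 1 spread to all days, and the pooled replicate SD of GHMYB36 was 0.114 at 0 dpa and 0.428 to 1.21 at the later days on the log2 scale. With the 0 dpa arrays fitted alone, an alternative chosen after seeing the data, the adjusted p was 2.76e-06, and JKC 725 exceeded JKC 737 by 1.25 (1.25e-06) and JKC 783 by 1.06 (8.57e-06). MYB5 at 0 dpa was 259 ± 26.6 in JKC 725, and the other genotype means lay between 145 and 193, with overlapping neighbours.

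Over all days, 15 of the 24 F tests among genotypes were called. The background of called probe sets was 28.6% at 0 dpa, 28.1% at 6 dpa, 25.8% at 9 dpa, 30.4% at 12 dpa, 49.3% at 19 dpa and 49.6% at 25 dpa. Beside those above, GHDEL61 was called at 9, 12, 19 and 25 dpa, GHMYB36 at 12, 19 and 25 dpa, and MYB5 at 6, 19 and 25 dpa. All GHDEL61 arrays at 19 and 25 dpa were low signals. The GHDEL61 test at 9 dpa was lost without an offset (limma adjusted p = 0.271), without the filter (0.0557) and with the day fitted alone (0.0761). With an offset of 16 the GHDEL61 tests at 19 dpa (0.164) and 25 dpa (0.21) were lost. Fitting the day alone lost those at 12, 19 and 25 dpa (0.108, 0.165 and 0.117). Leaving out replicate 3 lost GHDEL61 at 9, 19 and 25 dpa (0.355, 0.0976 and 0.0671). The GHMYB36 test at 25 dpa was lost with an offset of 16 (0.12), without replicate 1 (range 1.56) and with the day fitted alone (0.0533). That at 19 dpa was lost with the day fitted alone (0.057), as was that at 12 dpa (0.163). The MYB5 test at 6 dpa was lost without an offset (0.0528). Leaving out replicate 3 lost MYB5 at 6 and 25 dpa (0.163 and 0.0835). Without replicate 1 MYB5 was also lost at 6 and 19 dpa (ranges 2.24 and 2.01). GHDEL61 was then lost at 9, 12, 19 and 25 dpa (ranges 1.38, 0.886, 1.63 and 1.57). Of 240 pairs of genotypes 42 were called, against 13.1% of all tested pairs. At 0 dpa 2 of 40 pairs were called, against 9.28% of tested pairs, at 6 dpa 12 of 40, against 9.76%, and at 9 dpa 4 of 40, against 8.69%. At 12 dpa 4 of 40 were called, against 11%, at 19 dpa 10 of 40, against 20.4%, and at 25 dpa 10 of 40, against 19.4%. The share was well above the background at 6 dpa alone, and near or under it at the other days. At 12 dpa JKC 783 led for all 4 genes in the means. Its replicate 1 was the highest of its group for each of them, and without it the 12 dpa F tests of GHMYB36 (adjusted p = 0.107) and GHDEL61 (0.0571) were lost. The difference of JKC 703 from JKC 783 in GHMYB10, -1.99 ± 0.61, was then -1.49 and not called (0.0806). For MYB5 at 6 dpa, JKC 703 had a mean of 55.6 ± 20.1, above JKC 737 at 8.52 ± 4.71 by 2.24 ± 0.71 (adjusted p = 0.00956), in part at low signals. At 19 dpa GHMYB36 in JKC 725 (0.979 ± 0.324) was lower than in JKC 777 (38.0 ± 26.5), a difference of -2.82 ± 0.64 (adjusted p = 0.000165).

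The course over the 5 fibre days differed between genotypes for GHDEL61 (limma interaction F test, adjusted p = 0.00119), MYB5 (0.0155) and GHMYB36 (0.0361). The MYB5 result was lost without replicate 1 (0.237) and without replicate 3 (0.165), and the GHMYB36 result with an offset of 16 (0.0587) and without replicate 1 (0.679). For GHMYB10 the adjusted p was 0.0562, and it passed after quantile normalization (0.0204), with median centring (0.00634), with an offset of 16 (0.0186), without replicate 3 (0.0324) and without replicate 1 of JKC 783 at 12 dpa (0.0444). Such a call was common, at 79.5% of tested probe sets. The seed and embryo markers differed between genotypes at 19 dpa in no common direction. JKC 725 had the highest mean of vicB_At (1451, against 1.74 to 34.5 in the other genotypes), of LegA (69.7) and of the dimmer LEGB probe set (182). It had the lowest mean of the brighter LEGB probe set (49.5, against 95.6 to 152) and of Lea14-A (66.5, against 176 to 1381), and Lea5-D was highest in JKC 703 (11380). The part of such material in the late genotype differences was not tested. At 19 dpa every fibre cell probe set had lower means in JKC 725 and JKC 703 than in the other genotypes. EXPA1 was at 1649 in JKC 725 and 1368 in JKC 703, against 13740 to 15170. E6 was at 10600 and 9534, against 18380 to 19520. The flavonoid enzyme gene DFR divided likewise (1317 and 1194, against 5865 to 8887). HIS2B did not (4323 and 4903, against 3696 to 4787). The part of this division in those differences was not tested.

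The superior class, JKC 725 and JKC 777, was compared with the inferior class, JKC 703, JKC 783 and JKC 737, on genotype means, since the class is a property of the genotype. No difference passed in any of 28 comparisons, the 6 days and the mean of the fibre days for each gene (limma, smallest adjusted p = 0.999), and 1 had an unadjusted p under 0.05. Over all tested probe sets 0.00383% of such comparisons were called and 1.34% had an unadjusted p under 0.05. The 1 was GHDEL61 at 19 dpa, at +0.99 ± 0.38 with both superior genotypes above the inferior ones, at signals under the limit. MYB5 at 9 dpa also had classes that did not overlap, with the superior genotypes lower, at -0.79 ± 0.37, also mostly at low signals. At 0 dpa the difference was +0.64 ± 0.29 for GHMYB36, +0.40 ± 0.28 for MYB5, +0.28 ± 0.55 for GHMYB10 and +0.02 ± 0.23 for GHDEL61. With 2 genotypes against 3, a p that misses the threshold does not show that the classes are alike.

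GHMYB36, GHMYB10 and GHDEL61 varied together across the fibre samples, and MYB5 did not vary with them. Over the 25 fibre groups of genotype and day, the Pearson correlation of log2 group means was 0.884 for GHMYB36 with GHMYB10, 0.792 for GHMYB36 with GHDEL61 and 0.789 for GHMYB10 with GHDEL61. MYB5 had 0.0349 with GHMYB36, 0.13 with GHMYB10 and -0.105 with GHDEL61. These groups share their arrays and a decline with day, so the values are a description. In fibre 59 of 74 MYB5 arrays were low signals, and the part of scatter in its correlations was not tested. Over all 30 groups, ovule included, MYB5 had 0.702 with GHMYB36, 0.621 with GHMYB10 and 0.616 with GHDEL61. Over the 5 ovule groups, GHDEL61 had negative correlations with GHMYB10 (-0.793) and GHMYB36 (-0.462). These rest on 5 points, and GHDEL61 was not called different among the ovules (limma F test, adjusted p = 0.889, range 0.47).

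Among 299 other nameable probe sets, GHMYB10 and GHMYB36 had the same closest companions over the 25 fibre groups. These were the brighter of the discordant LEGB probe sets, with ovule signals of 789 to 943 (0.890 with GHMYB10 and 0.896 with GHMYB36) and DET2, whose product acts in the synthesis of brassinosteroid hormones (0.887 and 0.891), followed by each other. GHDEL61 was closest to the ribosomal protein gene RPL44 (0.876), the fasciclin-like arabinogalactan protein gene FLA12 (0.830) and the ribosomal protein gene RPL37A (0.825). MYB5 was closest to the NAC factor gene NAC5 (0.747), a gene listed as MYB (0.729) and ACO1, of ethylene synthesis (0.693). All these named companions lay below 0.9. Over all tested probe sets, 76 correlated above 0.9 with GHDEL61, 23 with GHMYB10, 3 with GHMYB36 and 0 with MYB5.

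Other regulators of the same families did not follow the 4 genes into fibre as a group. Of 9 nameable MYB probe sets, MYB5, GHMYB36 and GHMYB10 included, 3 were lower in 6 dpa fibre than in the ovule, all of them these 3, and 1 was higher, in the means over genotypes. The background in these means was 14.8% lower and 8.51% higher. The list's median change was -0.42, against -0.28 over all tested probe sets. The 1 that rose was myb109, a MYB gene that acts in fibre initiation and elongation, with mean signals of 674 at 6 dpa, against 90.4 at 0 dpa, and a change of +3.04 ± 0.21 (limma adjusted p = 6.92e-21). The gene listed as both MYB5 and MYB6 changed by -0.64 ± 0.12, under the minimum, with a mean signal of 490 at 6 dpa. In the later-minus-earlier comparison 4 of the 9 were called lower and 0 higher, against 9.79% and 8.8% of tested probe sets, with a list median of -0.76 and an overall median of -0.03. They were myb109 (-3.84 ± 0.14), GHMYB10 (-2.93 ± 0.18), 1 of 2 GHMYB38 probe sets (-1.96 ± 0.12) and GHMYB36 (-1.62 ± 0.19).

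**Figure D4:**
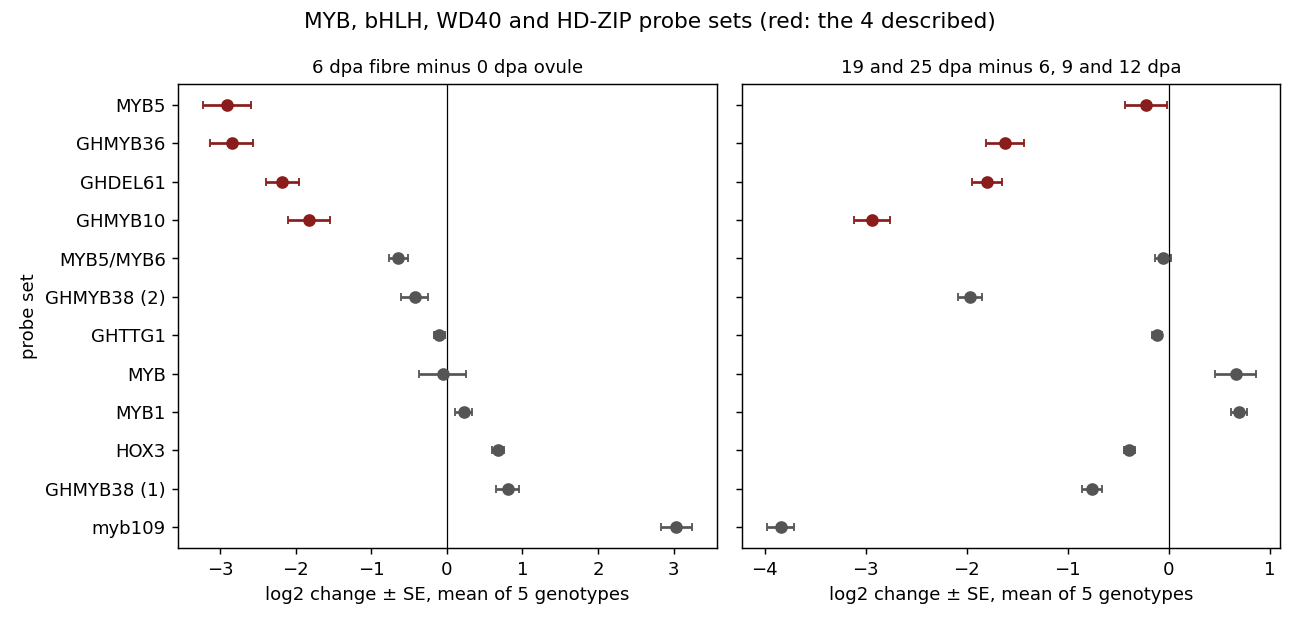
Change on the log2(signal + 4.38) scale, averaged over 5 genotypes, with its standard error, for the 9 nameable MYB probe sets, GHDEL61, GHTTG1 and HOX3. Left, 6 dpa fibre minus 0 dpa ovule; right, 19 and 25 dpa minus 6, 9 and 12 dpa. The 4 genes described here (red) have the most negative changes on the left, and myb109 has the highest there and the lowest on the right.

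GHTTG1 and HOX3 changed by less than the minimum in both comparisons. GHTTG1, the cotton gene named after the Arabidopsis WD40 protein TTG1, had changes of -0.10 ± 0.07 at the step into fibre and -0.12 ± 0.05 between the later and earlier fibre days, neither called, and the sign of both turned after quantile normalization. HOX3, a homeodomain gene that promotes fibre elongation, had +0.67 ± 0.08 and -0.39 ± 0.05, both under the minimum change. GHDEL61 was the single nameable bHLH probe set and no TCP factor could be named. Of 7 probe sets for flavonoid and proanthocyanidin enzymes, whose genes MYB and bHLH factors control in the Arabidopsis seed coat, 5 were tested, and none was called at the step into fibre (median +0.03). The chalcone synthase gene CHS3 was just under the minimum change, at +0.95 ± 0.10 (limma adjusted p = 2.44e-13), and was called higher after quantile normalization (+1.21), with median centring (+1.26) and without replicate 1 (+1.04). Between the later and earlier fibre days 1 rose, CHS3 (+1.80 ± 0.07), and 1 fell, the dihydroflavonol reductase gene DFR (-1.19 ± 0.05), with a median of -0.72.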

How the data were processed

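The deposited intensity of each probe set and array was made by the authors with MAS5, per the submitters' processing notes (version not stated, linear scale, detection calls not used here). Trimmed by 2%, the mean signal came out at 500.1 to 500.2 on every array, and array medians were 59.9 to 119.8. The number of arrays limits the precision. Names came from a probe set table and RefSeq synonyms (assembly Gossypium_hirsutum_v2.1). Of 743 listed probe sets 697 had 1 gene, and 324 had a readable synonym.

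The 103 AFFX controls were left out. An offset of 4.38, the 10th percentile of the table, was added before log2, and 18659 probe sets with a group mean of at least 40.4 were tested. The model had 30 group means (limma 3.58.1, R 4.3.3), an intensity trend and Benjamini-Hochberg adjustment. F tests among genotypes also needed a range of at least 1, interaction tests had no minimum, and the classes were compared on 5 genotype means.

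Listed genes are those matching name patterns, and companions are the 3 nameable probe sets with the highest correlation over 25 fibre groups. The members and lists were chosen with earlier results of these data known. Alternatives were quantile normalization, median centring, no offset, an offset of 16, no filter, no trend, a replicate block, each replicate left out, and without JKC 725 at 12 dpa replicate 2. Fits of each day alone and without JKC 783 at 12 dpa replicate 1 were added after seeing the data. On simulated data for the step from 0 to 6 dpa in JKC 777 over 18659 probe sets, 87% of 100 changes of 2 and 97% of 100 changes of 3 were called.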

Additional observations from a re-analysis of the deposited data

Results flagged for a closer look

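Differences between genotypes in the course of a gene were called by limma's interaction F tests. The step from 0 dpa ovule to 6 dpa fibre differed for GHDEL61 (adjusted p = 0.0254), against 34.4% of tested probe sets, and this was lost after quantile normalization (0.0986), without an offset (0.289), without replicate 2 (0.308) and without replicate 3 (0.203). Across the fibre days the courses differed for GHDEL61 (adjusted p = 0.00119), MYB5 (0.0155) and GHMYB36 (0.0361), a call made for 79.5% of tested probe sets. Among the alternatives, that of MYB5 was lost without replicate 1 (0.237) and without replicate 3 (0.165), and that of GHMYB36 with an offset of 16 (0.0587) and without replicate 1 (0.679).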

How the results depend on the processing

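Over 2048 comparisons of a result with its value under an alternative, 1759 kept direction and side of the threshold, 234 lost a call, 24 gained one, 15 were counts that moved by over 1.5 times and 16 turned sign. Called falls at the step into fibre numbered 12 without an offset. GHDEL61's interaction at that step was lost after quantile normalization and without an offset, so 0 were called. The 1 rise between fibre days became 0 with an offset of 16 and without the filter. Fitting each day alone, an alternative chosen after seeing the data, gave 8 called F tests among genotypes. Leaving out 1 replicate number from all groups leaves 2 arrays or 1 in a group, the lone array being assumed to vary like the others. This gave 10 to 16 falls (19 without the single array of JKC 725 at 12 dpa) at the step into fibre, 4 to 12 falls and 0 to 1 rises between fibre days, 12 to 16 falls later minus earlier, 12 to 32 genotype pairs (47 without that array), 4 to 13 F tests, 1 to 3 fibre interactions and 0 to 1 interactions at the step. The class comparison stayed at 0 calls in the alternatives run. The cause of these shifts was not tested.

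Signs that turned belonged to values near 0 that were not called. At the step into fibre they were GHTTG1 (+0.14 quantile, +0.21 median centring), MYB (+0.17 quantile, +0.25 median centring, -0.1569 to +0.04261 leaving out each replicate in turn), CHS2 (+0.10 quantile, +0.15 median centring) and CHS6 (-0.2394 to +0.2485 leaving out each replicate in turn). Later minus earlier, they were GHTTG1 (+0.0438 quantile), the gene listed as MYB5 and MYB6 (+0.13 quantile, -0.1555 to +0.01238 leaving out each replicate in turn), and MYB5 in JKC 777 (+0.13 median centring, +0.0207 with an offset of 16, -0.5459 to +0.5828 leaving out each replicate in turn), in JKC 737 (-0.0234 without an offset) and in JKC 725 (-0.4992 to +0.1762 leaving out each replicate in turn).

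Same-numbered replicates did not deviate together: the median correlation of their deviations was -0.001262, and 19.3% of 1276 pairs were over 0.1. With the replicate block 18 falls were called at the step into fibre, the call lost being MYB5 in JKC 703 (-1.61, adjusted p = 0.0502), and no other call changed.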
